A study of Mus musculus with 30 samples.

Results

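A total of 47 genes that act in mitosis and on the mitotic spindle was followed in mouse forelimb buds after a block of WNT secretion. The genes were taken by name from a fixed list, all 47 were found in the deposited tables, and they are 47 of 50833 genes counted. Wnt-C59 (C59) is a small molecule that inhibits porcupine, the acyltransferase that WNT proteins need in order to be secreted. Pregnant Swiss Albino females carrying wild-type embryos received a single intraperitoneal injection at embryonic stage E10.5, and forelimb buds were dissected 1, 6, 12, 18 or 24 h later. C59 was given in a vehicle of PBS with methylcellulose, Tween and DMSO, and controls received DMSO in PBS. The methods name no methylcellulose or Tween for the controls and give another share of DMSO, so the control was not a matched vehicle. PolyA RNA-sequencing was done for 3 libraries of each of the 10 groups, 30 in all, each made from 1 pair of forelimb buds. C59 was given to the mother and not to the limb bud alone, and its spread over tissues of the embryo was not measured here. Every cell type of the bud went into the RNA. The methods give several litters for each condition and time point where they describe embryos collected for imaging, and do not repeat it for the RNA libraries. P-values measure the spread between the 3 pairs of a group. For these genes the time course asks whether and when transcript levels differed from the controls after WNT signaling was blocked, and in which genes. Log2 fold changes are given ± SE, and a gene is called lower or higher where the quasi-likelihood test of edgeR gave an adjusted p below 0.05, with Benjamini-Hochberg adjustment over all genes tested.

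Cells enter mitosis when cyclin B binds the kinase Cdk1 and phosphatases of the Cdc25 family remove the phosphates that hold it inactive. Chromosomes are then compacted by topoisomerase II and condensin, microtubules of the spindle attach to them at kinetochores, and the spindle checkpoint delays their separation until each is attached. The anaphase-promoting complex finally marks cyclin B and securin for destruction, and a contractile ring divides the cell. Most of these genes are transcribed late in the cell cycle, in G2 and M phase, and the progenitors of the early limb bud divide rapidly. In RNA of whole limb buds fewer cells in these phases and less RNA per cell cannot be told apart.

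Promoters of genes transcribed in G2 and M phase often hold a cell cycle homology region (CHR), read by the DREAM and MuvB complexes, and CCAAT boxes, read by the factor NF-Y. All members with a promoter in the table used were therefore searched for both motifs, TTTGAA for the CHR and CCAAT for the CCAAT box, on either strand (TTCAAA and ATTGG), in RefSeq promoters of the GRCm38.p6 assembly from 250 bases before to 50 bases after each start site. RefSeq promoters were searched for 39 of 47 members. Besides *Cdc25c* and *Kif20a*, the members *Aurkb*, *Dlgap5*, *Tpx2*, *Ccna2*, *Smc4* and *Cdca2* were missing, with no promoter in the table used. TTTGAA was present for 28 of the 39 members (71.8%). It was present for 20.2% of all 27025 genes searched and 14.2% of the 10542 of them that were tested at 18 h. CCAAT was present for 31 members (79.5%) against 41.1% and 42.6%, and both motifs together for 24 members (61.5%) against 7.97% and 5.9%. The shares depended on the window. When only the 250 bases before the start site were read, TTTGAA was found for 38.5% of members and 18.3% of all genes, and both motifs for 35.9% and 6.45%. The matches can share at most 1 base. They describe letters and not sites bound in limb buds.

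Stretches of 120 bases that end at the base before the RefSeq start site are given for 5 members from different steps of mitosis, chosen after the search because both motifs lie in them: Cdk1 (chr10:69352913-69353032, minus strand), Cdc20 (chr4:118437344-118437463, minus strand), Ube2c (chr2:164769809-164769928, plus strand), Top2a (chr11:99024190-99024309, minus strand) and Kif11 (chr19:37376262-37376381, plus strand). They read 5′ to 3′ on the strand of the gene, and capitals mark TTTGAA or TTCAAA and CCAAT or ATTGG.
*Cdk1*: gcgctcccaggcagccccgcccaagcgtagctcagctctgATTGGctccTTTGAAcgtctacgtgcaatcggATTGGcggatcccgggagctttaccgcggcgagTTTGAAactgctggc
*Cdc20*: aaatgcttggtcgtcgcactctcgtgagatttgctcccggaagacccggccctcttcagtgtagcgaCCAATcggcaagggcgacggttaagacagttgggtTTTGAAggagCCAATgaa
*Ube2c*: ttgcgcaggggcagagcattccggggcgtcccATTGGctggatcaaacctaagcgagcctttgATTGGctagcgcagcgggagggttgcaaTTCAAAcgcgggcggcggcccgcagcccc
*Top2a*: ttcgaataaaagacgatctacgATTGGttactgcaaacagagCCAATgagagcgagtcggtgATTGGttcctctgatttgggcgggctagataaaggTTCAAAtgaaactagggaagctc
*Kif11*: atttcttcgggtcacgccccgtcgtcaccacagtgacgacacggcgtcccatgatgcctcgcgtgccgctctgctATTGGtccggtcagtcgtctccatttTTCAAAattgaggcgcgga

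A CHR hexamer starts 15 bases before the RefSeq start site of *Cdk1*, 18 bases before that of *Cdc20*, 29 before that of *Ube2c*, 23 before that of *Top2a* and 19 before that of *Kif11*. A further hexamer begins 71 bases before the start site of *Cdk1*. The CCAAT box nearest to the first-named hexamer on its upstream side begins 48 bases before the start site in *Cdk1*, 53 in *Cdc20*, 57 in *Ube2c*, 58 in *Top2a* and 45 in *Kif11*, and *Cdc20* holds another 8 bases before its start. Gene spans of the GENCODE annotation begin further upstream in *Cdk1* (69352938), *Ube2c* (164769898) and *Cdc20* (118437352). The hexamers of *Cdk1* and *Ube2c* nearest the start site, and the last box of *Cdc20*, lie within these spans.

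Libraries held between 18188636 and 38974885 counts, and values per library are normalized read counts (CPM, on TMM-normalized library sizes). *Axin2*, a transcriptional target of WNT signaling used as the check of the treatment, stood at 110.0 ± 6.82 CPM (SD, n = 3) in DMSO limb buds and at 28.2 ± 1.51 CPM (SD, n = 3) in C59 limb buds 6 h after injection. Its log2 fold change was -1.97 ± 0.06 on the log2 scale (edgeR adjusted p 7.55e-11) at 6 h, -1.45 ± 0.06 on the log2 scale (edgeR adjusted p 1.4e-07) at 12 h and -0.16 ± 0.09 on the log2 scale (edgeR adjusted p 0.333) at 18 h. The 7 markers of limb bud mesenchyme summed to between 1239 and 1846 CPM per library, against 9.83 to 23.7 CPM for *Pitx1* and *Tbx4*, which mark hindlimb. The biological coefficient of variation, a measure of spread between replicates, came to 12.5% for the libraries of 18 h, and elsewhere it ranged from 5.41% to 7.52%. At 18 h the widest gaps between replicates were those of C59 replicate 3.

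The members were expressed in every library, and all 47 passed the filter on low counts in every comparison. Per length, on the FPKM scale of the authors, the highest mean level over all libraries was that of *Ube2c* (182.8 FPKM), which encodes the ubiquitin-conjugating enzyme of the anaphase-promoting complex. It was followed by *Top2a* (106.0 FPKM), *Cks2* (104.6 FPKM), *Cdc20* (91.9 FPKM) and *Birc5* (85.9 FPKM), and the ranges over libraries of all neighbours in this order overlapped. The lowest were *Kif20b* (11.8 FPKM), *Cenpf* (11.9 FPKM) and *Cdc25c* (14.8 FPKM). The order depended on the length used, since CPM per kilobase of all exons put *Cks2* first and *Ube2c* in place 3.

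In control limb buds the members declined with time. The geometric mean over the 47 genes was 157, 153 and 156 CPM in the 3 DMSO libraries at 1 h, 142, 137 and 143 CPM at 12 h and 119, 118 and 117 CPM at 24 h, and no library of 24 h reached the lowest of 1 h. From 1 h to 24 h in DMSO 44 members fell and 0 rose in edgeR (0 higher also at unadjusted p below 0.05, in DESeq2 and in limma), with a median log2 fold change of -0.41. Of all 13580 genes tested 29.2% fell and 30.2% rose, and the median of all was -0.0018. *Nek2*, a kinase of the centrosome, showed the lowest value (log2 fold change -0.85 ± 0.06, edgeR adjusted p 1.88e-08), with 82.2, 76.6 and 82.7 CPM at 1 h and 44.2, 48.0 and 42.2 CPM at 24 h. *Cdc25b*, *Kif23* and *Nusap1* did not pass the test, at 0.03 ± 0.06, -0.10 ± 0.04 and 0.04 ± 0.05.

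After C59 the members were lower at 12 h and lower still at 18 h, and at 24 h their levels overlapped those of the controls. Their geometric mean at 12 h was 104, 112 and 120.4 CPM in the C59 libraries against 142, 137 and 143 CPM in DMSO. At 18 h it was 80.3, 74.1 and 61.2 CPM against 128, 132 and 134 CPM, and at 24 h 114, 121 and 113 CPM against 119, 118 and 117 CPM. The groups did not overlap at 12 h and 18 h, and at 24 h a C59 library was the highest and another the lowest of the 6. Each C59 library of 18 h also lay below the DMSO libraries of 24 h, the lowest of the control course.

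**Figure D1:**
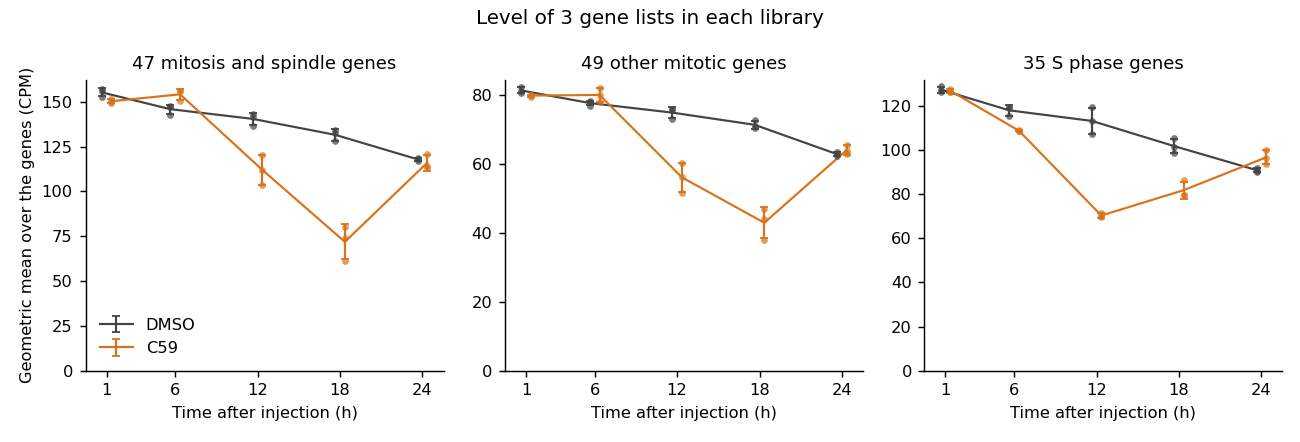
Geometric mean over 47 mitosis and spindle genes, 49 other mitotic genes and 35 S phase genes, in CPM (y axis, from 0), against time after injection in hours (x axis); points are single libraries, lines join the means of 3 libraries and bars give their SD. The mitosis and spindle genes are lowest in C59 at 18 h (61.2 to 80.3 CPM), whereas the S phase genes are lowest in C59 at 12 h (69.6 to 71.4 CPM).

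At 12 h 38 of 47 members were lower in C59 and 0 higher in edgeR, where 25.5% of all 13324 genes tested were lower and 22% higher. At unadjusted p below 0.05 1 member was higher, and 0 were in DESeq2 and limma. The median log2 fold change of the members was -0.34, against 0.02 for all genes tested. At 18 h 41 members were lower and 0 higher in edgeR (0 higher also at unadjusted p below 0.05, in DESeq2 and in limma), where 3.62% of 13413 genes were lower and 3.46% higher. The members' median was then -0.87, against 0.0012 for all genes tested. Of the 41, 9 passed a log2 fold change of -1 (*Bub1*, *Ccnb1*, *Cdc25c*, *Cdca3*, *Ckap2l*, *Hmmr*, *Kif22*, *Nuf2* and *Nusap1*), which 0.738% of all genes did. The C59 mean ranged from 46.3% of the DMSO mean for *Bub1* to 108.7% for *Ckap5* at 18 h, with a median of 54.2%, whereas the median was 78.7% at 12 h.

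A total of 36 members was lower at both times. *Kif20b* and *Smc4* passed the test at 12 h alone, *Ccnb2*, *Cdc25b*, *Cenpa*, *Dlgap5* and *Nusap1* at 18 h alone, and *Cenpe*, *Cenpf*, *Ckap5* and *Mki67* at neither. Among the 5 time points the log2 fold change was lowest at 18 h for 46 members. The same held for 20.4% of all 12774 genes tested at every time point. *Ckap5* was the exception (lowest at 1 h), and its DMSO libraries of 18 h differed widely, as given below. All 3 C59 libraries of 18 h lay below each of the other 27 libraries for 42 members, which held for 2.59% of all genes tested at 18 h, and the remaining members were *Cenpe*, *Cenpf*, *Ckap5*, *Kif20b* and *Mki67*. The C59 libraries of 18 h lay below all 15 DMSO libraries for 44 members and 9.3% of all genes.

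**Figure D2:**
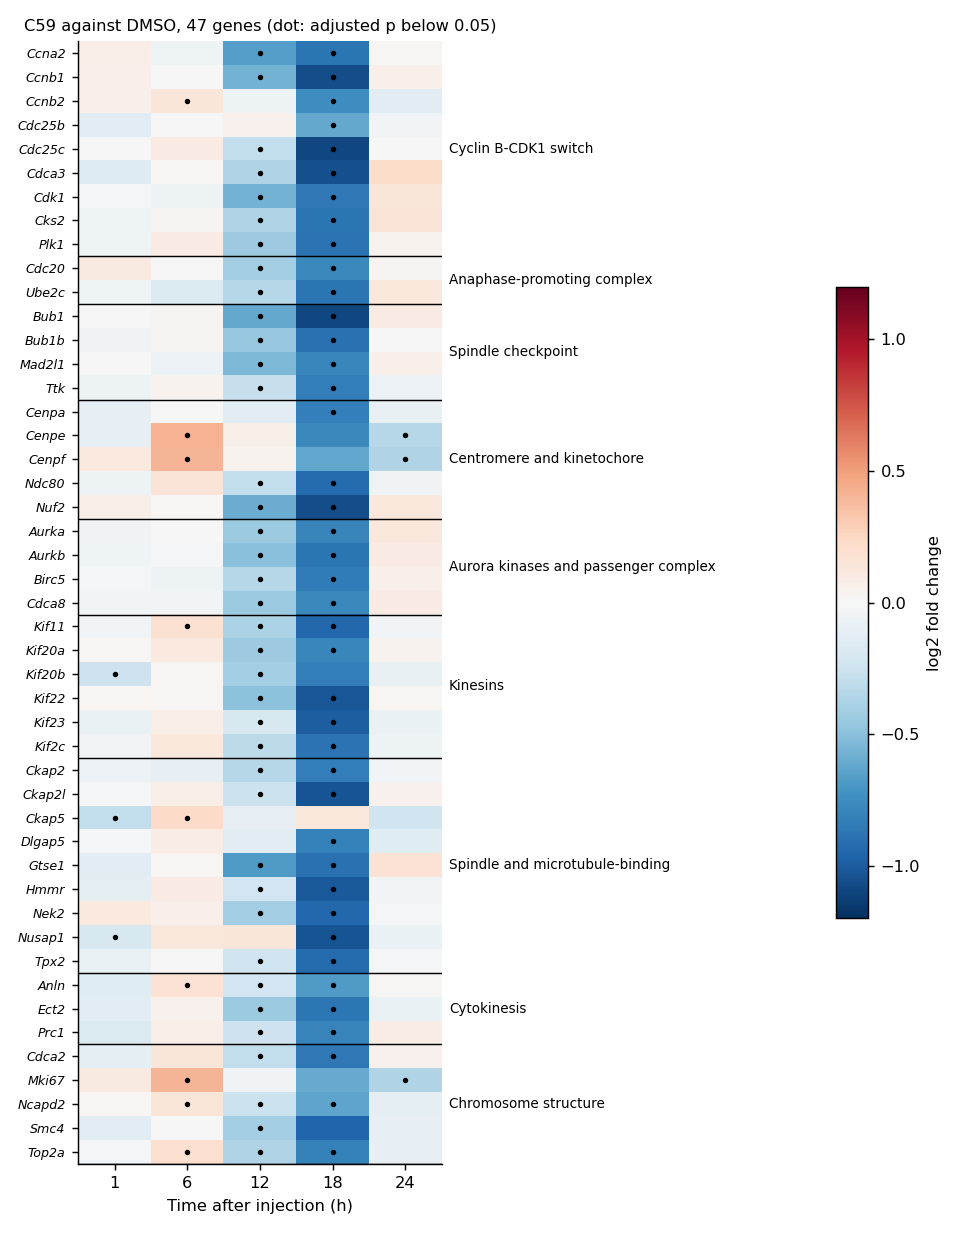
log2 fold change of C59 against DMSO (colour scale) for each of the 47 genes (rows, grouped by role) for each of the 5 collection times (columns, hours after injection, 6 libraries each); a dot marks an edgeR adjusted p below 0.05. Dots fill most of the 12 h and 18 h columns (38 and 41 genes, all lower), and 9 genes at 6 h are higher.

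Of the 9 genes of the cyclin B-Cdk1 switch 7 were lower at 12 h and all 9 at 18 h. For this group and the groups of members that follow, the share of all genes called lower was 25.5% at 12 h and 3.62% at 18 h. Positions of genes are given on mm10. *Ccnb1* (chromosome 13, 100778650 to 100786570), which encodes cyclin B1, counted 263, 256 and 275 CPM in DMSO and 162, 180.4 and 195 CPM in C59 at 12 h. Later, at 18 h, it counted 236, 239 and 252 CPM in DMSO and 118, 115 and 110.4 CPM in C59, with no overlap of the groups at either time and a change of -1.06 ± 0.08 on the log2 scale (edgeR adjusted p 0.00068). *Cdk1* (chromosome 10, 69335146 to 69352938), the kinase that cyclin B activates, was at 165, 160.4 and 167 CPM against 96.6, 89.8 and 81.8 CPM at 18 h, again without overlap (log2 fold change -0.86 ± 0.09, edgeR adjusted p 0.00198). Its paired hexamers are shown above. *Ccna2*, which encodes cyclin A2 of S and G2 phase, was among the lowest at 12 h (log2 fold change -0.66 ± 0.06, edgeR adjusted p 6.35e-06) and stayed lower at 18 h (log2 fold change -0.88 ± 0.09, edgeR adjusted p 0.00176). It shares 12.5% of its exon bases with *Exosc9* on the opposite strand, and the strand setting was stated as unstranded for the FPKM values but not for the counts.

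*Ccnb2* and *Cdc25b* did not pass the test at 12 h and were lower at 18 h. *Ccnb2*, cyclin B2, counted 122, 113 and 125 CPM in DMSO and 106, 109 and 129 CPM in C59 at 12 h (log2 fold change -0.07 ± 0.07, edgeR adjusted p 0.485), with overlap of the groups. At 18 h it was at 103, 104 and 111 CPM and 58.7, 62.5 and 65.9 CPM, without overlap (log2 fold change -0.74 ± 0.09, edgeR adjusted p 0.00308). *Cdc25b* (chromosome 2, 131186949 to 131198497), a phosphatase that activates Cdk1, stood at 55.4, 56.7 and 56.7 CPM and 56.4, 55.7 and 62.4 CPM at 12 h, where the groups overlapped (log2 fold change 0.05 ± 0.06, edgeR adjusted p 0.512), and at 58.5, 58.1 and 63.4 CPM and 38.3, 37.2 and 40.3 CPM at 18 h, where they did not (log2 fold change -0.62 ± 0.09, edgeR adjusted p 0.00634). *Cdc25c*, another phosphatase of Cdk1, was among the lowest at 18 h (log2 fold change -1.09 ± 0.14, edgeR adjusted p 0.00389), with 49.1, 41.7 and 47.9 CPM in DMSO and 25.5, 20.5 and 18.1 CPM in C59. It shares 12.7% of its exon bases with *Gm3550* on the opposite strand. *Plk1*, the Polo-like kinase, changed by -0.43 ± 0.08 at 12 h and -0.89 ± 0.09 at 18 h, *Cdca3* by -0.36 ± 0.11 and -1.05 ± 0.10 and *Cks2*, a small subunit bound to Cdk1, by -0.36 ± 0.09 and -0.87 ± 0.09 (all edgeR, adjusted p at or below 0.0213).

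Both members of the anaphase-promoting complex were lower at 12 h and at 18 h. *Cdc20*, which brings substrates to the complex and is held by the spindle checkpoint, counted 225, 200.4 and 216 CPM in DMSO and 111, 116 and 144 CPM in C59 at 18 h (log2 fold change -0.77 ± 0.12, edgeR adjusted p 0.00717). *Ube2c*, the member with the highest FPKM, counted 239.8, 233 and 244 CPM and 131, 128 and 126 CPM (log2 fold change -0.88 ± 0.08, edgeR adjusted p 0.00145). The groups did not overlap for either gene, and the C59 libraries of *Ube2c* were close together. *Ube2c* shares 22.8% of its exon bases with *Tnnc2* on the opposite strand.

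The 4 genes of the spindle checkpoint, which halts anaphase while kinetochores are unattached, were all lower at 12 h (median -0.50) and at 18 h (median -0.86). *Bub1* (chromosome 2, 127801122 to 127831865), a kinase that recruits checkpoint proteins to kinetochores, had 176, 162 and 169.8 CPM in DMSO and 103, 109 and 119 CPM in C59 at 12 h. After 18 h it had 149, 155 and 158 CPM and 83.5, 77.4 and 52.6 CPM, the lowest log2 fold change of all members (log2 fold change -1.09 ± 0.16, edgeR adjusted p 0.00592). C59 replicate 3 was the lowest library there, and the groups did not overlap at either time. *Mad2l1*, which binds Cdc20, changed by -0.54 ± 0.06 at 12 h and -0.78 ± 0.14 at 18 h, *Bub1b* by -0.45 ± 0.06 and -0.89 ± 0.08 and the kinase *Ttk* by -0.28 ± 0.09 and -0.83 ± 0.13.

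Of 5 genes of the centromere and kinetochore, 2 were lower at 12 h and 3 at 18 h, where 25.5% and 3.62% of all genes were. With 5 genes the count at 12 h is not read as a result about this group. *Nuf2* and *Ndc80*, partners in the complex that binds microtubules, changed by -0.60 ± 0.06 on the log2 scale (edgeR adjusted p 1.61e-05) and -0.29 ± 0.08 on the log2 scale (edgeR adjusted p 0.013) at 12 h, and by -1.06 ± 0.17 on the log2 scale (edgeR adjusted p 0.00945) and -0.93 ± 0.19 on the log2 scale (edgeR adjusted p 0.0226) at 18 h. At 18 h *Ndc80* counted 58.1, 53.0 and 57.7 CPM in DMSO and 33.1, 34.96 and 19.8 CPM in C59, without overlap and with C59 replicate 3 the lowest. *Cenpa*, the histone that marks the centromere, was at 178, 164 and 177 CPM and 143, 159 and 173 CPM at 12 h, with overlap (log2 fold change -0.13 ± 0.07, edgeR adjusted p 0.138), and at 165, 156 and 165 CPM and 93.9, 89.6 and 88.6 CPM at 18 h, without it (log2 fold change -0.82 ± 0.08, edgeR adjusted p 0.00182). The other two, *Cenpe* and *Cenpf*, have long transcripts and follow with *Mki67*.

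Aurora kinases and the chromosomal passenger complex, which correct faulty attachments and guide cytokinesis, were lower in 4 of 4 members at both times. *Aurka*, the Aurora kinase of spindle poles, counted 99.1, 96.1 and 104 CPM in DMSO and 58.3, 53.7 and 57.9 CPM in C59 at 18 h (log2 fold change -0.80 ± 0.09, edgeR adjusted p 0.00218). *Aurkb*, the kinase of the passenger complex, counted 104, 96.6 and 103 CPM and 54.9, 53.7 and 54.6 CPM (log2 fold change -0.88 ± 0.08, edgeR adjusted p 0.00176). Neither gene had groups that overlapped, and the spread between the C59 libraries was small. *Birc5* (survivin) and *Cdca8* (borealin), partners of *Aurkb* in the passenger complex, changed by -0.84 ± 0.09 and -0.78 ± 0.08.

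All 6 kinesins, motors that move along microtubules, were lower at 12 h and 5 of 6 at 18 h. *Kif11* (chromosome 19, 37376403 to 37421859), which pushes spindle poles apart, had 236, 222 and 232 CPM in DMSO and 158, 178 and 194 CPM in C59 at 12 h, and 184, 225 and 223 CPM and 131, 117 and 76.6 CPM at 18 h. The groups did not overlap (log2 fold change -0.94 ± 0.18, edgeR adjusted p 0.0183 at 18 h). *Kif20a*, a motor of the central spindle, was at 147, 139.8 and 151 CPM and 85.7, 78.0 and 86.9 CPM at 18 h (log2 fold change -0.78 ± 0.09, edgeR adjusted p 0.00229) but shares 29.3% of its exon bases with *Cdc23* on the opposite strand. *Kif22*, a motor on chromosome arms, changed by -1.03 ± 0.09 on the log2 scale (edgeR adjusted p 0.00133) at 18 h, *Kif23* of the central spindle by -0.99 ± 0.14 and *Kif2c*, which takes microtubules apart at centromeres, by -0.89 ± 0.09. *Kif20b* had 84.4, 90.0 and 93.8 CPM and 62.9, 55.8 and 30.9 CPM at 18 h, groups without overlap but a C59 replicate 3 far below the others, and missed the threshold (log2 fold change -0.83 ± 0.22, edgeR adjusted p 0.0549).

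Proteins that bind or organize spindle microtubules make up 9 members, of which 6 were lower at 12 h and 8 at 18 h. *Gtse1*, which stabilizes microtubules, had the lowest value of all members at 12 h (log2 fold change -0.68 ± 0.06, edgeR adjusted p 1.03e-05), with 70.9, 65.9 and 71.2 CPM in DMSO and 42.4, 41.9 and 45.8 CPM in C59. *Tpx2*, which activates Aurora A at the spindle, counted 269.7, 283 and 285 CPM and 168, 150.1 and 118 CPM at 18 h (log2 fold change -0.92 ± 0.13, edgeR adjusted p 0.00538). *Hmmr* was lower at both times (-0.23 ± 0.06 and -1.01 ± 0.18), and *Ckap2l*, *Nek2*, *Ckap2* and *Dlgap5* changed by -1.04 ± 0.17, -0.95 ± 0.10, -0.83 ± 0.14 and -0.81 ± 0.10 at 18 h.

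*Nusap1* (chromosome 2, 119618298 to 119651244), which crosslinks microtubules near chromosomes, did not pass the test at 12 h and fell at 18 h. It had 123, 116 and 116 CPM in DMSO and 120.3, 127 and 144 CPM in C59 at 12 h (log2 fold change 0.14 ± 0.06, edgeR adjusted p 0.0854), where the groups overlapped. At 18 h it had 123, 136 and 128 CPM and 76.0, 71.7 and 38.0 CPM (log2 fold change -1.04 ± 0.22, edgeR adjusted p 0.0253), and C59 replicate 3 lay far below replicates 1 and 2. The change of its C59 effect from 12 h to 18 h was the lowest of all members (log2 fold change -1.18 ± 0.24, edgeR adjusted p 0.00889). With upper-quartile factors, which moved the median of all genes at 12 h from 0.02 to 0.10, *Nusap1* was called higher at 12 h.

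Cytokinesis, the final split of the cell, was represented by *Prc1*, which bundles microtubules of the central spindle, *Ect2* and *Anln*, a scaffold of the contractile ring. All were lower at 12 h (-0.25 ± 0.05, -0.45 ± 0.07 and -0.23 ± 0.05) and at 18 h (-0.80 ± 0.11, -0.87 ± 0.16 and -0.68 ± 0.16). *Prc1* counted 99.5, 101 and 102 CPM in DMSO and 63.8, 58.7 and 49.4 CPM in C59 at 18 h, without overlap, and shares 11.1% of its exon bases with *Rccd1* on the opposite strand.

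Among 5 genes of chromosome structure 4 were lower at 12 h and 3 at 18 h. *Top2a* (chromosome 11, 98992943 to 99024189), the topoisomerase that untangles sister chromatids, had 707, 864 and 868 CPM in DMSO and 550.4, 491 and 329 CPM in C59 at 18 h. The groups did not overlap (log2 fold change -0.81 ± 0.18, edgeR adjusted p 0.0287). The condensin genes *Smc4* and *Ncapd2* differed in spread. *Smc4* had 291, 282 and 290.2 CPM and 187, 171 and 82.8 CPM, with the low C59 replicate 3, and missed the threshold (log2 fold change -0.95 ± 0.25, edgeR adjusted p 0.0521), while *Ncapd2* changed by -0.63 ± 0.09 on the log2 scale (edgeR adjusted p 0.00629). *Cdca2*, which brings a phosphatase to chromatin, changed by -0.29 ± 0.06 at 12 h and -0.86 ± 0.11 at 18 h.

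**Figure D3:**
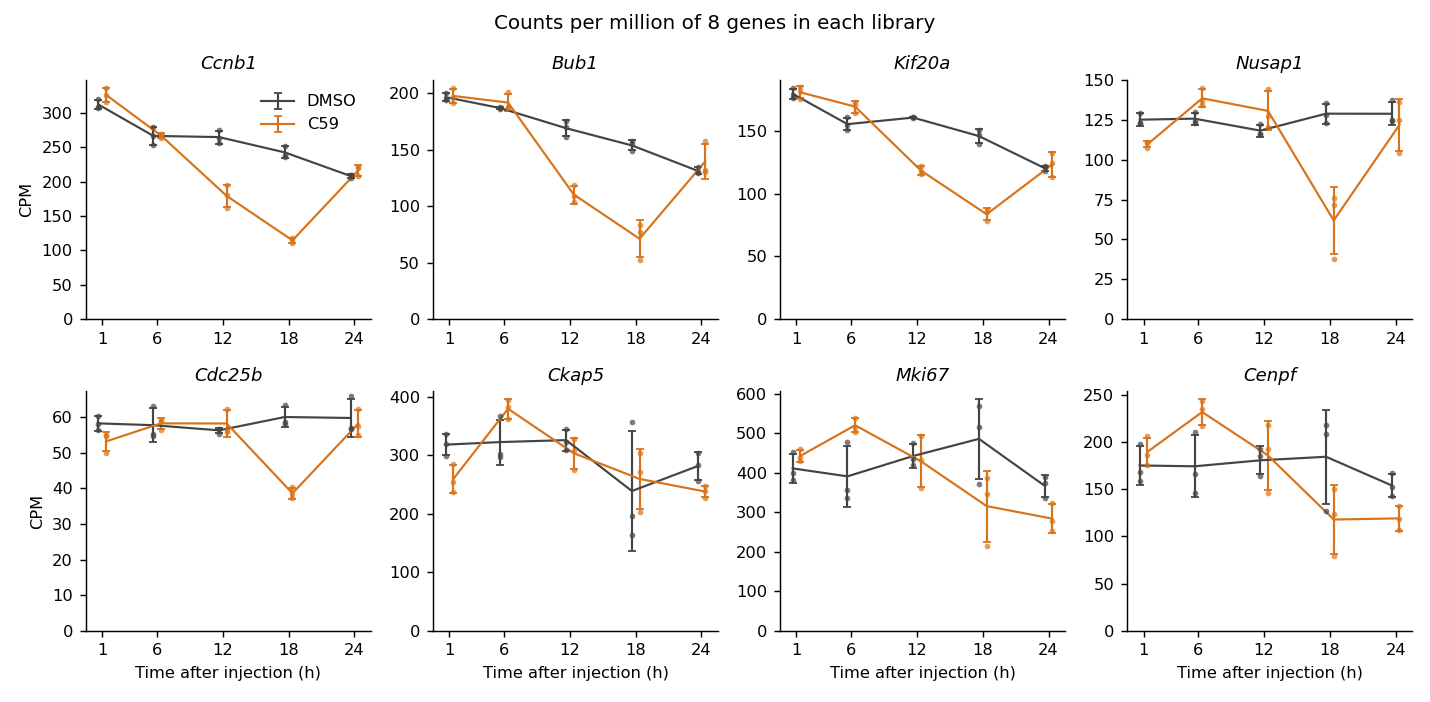
CPM (y axis, from 0) of Ccnb1, Bub1, Kif20a, Nusap1, Cdc25b, Ckap5, Mki67 and Cenpf against time after injection in hours (x axis); points are single libraries, lines join means and bars give the SD of 3 libraries. Ccnb1, Bub1 and Kif20a are already lower in C59 at 12 h, Nusap1 and Cdc25b differ at 18 h, and the groups of Ckap5, Mki67 and Cenpf overlap at 18 h.

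C59 replicate 3 was the lowest of all 30 libraries for 33 members at 18 h, which held for 18.7% of all genes tested. Without it 44 members were called lower at 18 h, with a median of -0.80, and *Cenpe*, *Kif20b* and *Smc4* were the ones gained. Without DMSO replicate 3 of 18 h 26 members were called.

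The C59 effect on the members moved back towards 0 between 18 h and 24 h. At 24 h 3 members were lower and 0 higher in edgeR, where 3.56% of 13675 genes were lower and 2.88% higher. At unadjusted p below 0.05 5 members were higher, and 0 were in DESeq2 and limma. The median had returned to -0.00029, against 0.0037 for all genes. The change of the C59 effect from 18 h to 24 h, tested on 12 libraries, was positive and past the threshold for 41 members and negative for 0 (0 at unadjusted p below 0.05, in DESeq2 and in limma), with a median of 0.88. It was positive for 3.53% and negative for 3.43% of 13794 genes. The members *Cenpe*, *Cenpf*, *Ckap5*, *Kif20b*, *Mki67* and *Smc4* did not pass. *Bub1* counted 129.8, 135 and 129 CPM in DMSO and 129.9, 157 and 132 CPM in C59 at 24 h, with overlap, and the change of its effect was 1.18 ± 0.18 on the log2 scale (edgeR adjusted p 0.00222). *Cdca3* changed most (log2 fold change 1.26 ± 0.15, edgeR adjusted p 0.000537), followed by *Nuf2* (1.19 ± 0.19).

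The onset was tested in the same way. From 6 h to 12 h the C59 effect became lower for 37 members and higher for 0 in edgeR (0 also at unadjusted p below 0.05, in DESeq2 and in limma), with a median of -0.42. Among 13565 genes 11.5% became lower and 6.59% higher. *Gtse1* (log2 fold change -0.70 ± 0.09, edgeR adjusted p 8.59e-05), *Bub1* (-0.65 ± 0.07) and *Ccna2* (-0.61 ± 0.07) led. From 12 h to 18 h it became lower still for 25 members, with a median of -0.53, where 3.55% of 13694 genes became lower and 4.94% higher. *Nusap1* led here and *Kif23* followed among those that passed (log2 fold change -0.79 ± 0.16, edgeR adjusted p 0.0074), whereas *Gtse1* (-0.21 ± 0.12) and *Ccna2* (-0.21 ± 0.10) did not pass. Without C59 replicate 3 of 12 h 16 members passed. These tests share the libraries of 12 h and of 18 h with the comparisons above.

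Before 12 h few members moved. At 1 h *Ckap5* (-0.29 ± 0.06), *Kif20b* (-0.25 ± 0.05) and *Nusap1* (-0.19 ± 0.04) were lower (edgeR, adjusted p 0.0154, 0.00937 and 0.0308), where 1.61% of 13076 genes were lower and 1.14% higher. The count of lower members was 6 without DMSO replicate 3 and 1 without any one of the C59 libraries. At 6 h, when *Axin2* was at its lowest, no member was lower (edgeR; 1 at unadjusted p below 0.05, 0 in DESeq2 and limma) and 9 were higher, where 11.4% of 13100 genes were lower and 8.2% higher. They were *Anln*, *Ccnb2*, *Cenpe*, *Cenpf*, *Ckap5*, *Kif11*, *Mki67*, *Ncapd2* and *Top2a*, from 0.15 for *Ccnb2* to 0.42 for *Cenpe*. *Top2a* had 857, 995 and 872 CPM in DMSO and 1067, 1011 and 1052 CPM in C59, without overlap (log2 fold change 0.20 ± 0.05, edgeR adjusted p 0.0204). *Ckap5*, a microtubule polymerase, had 298, 367 and 303 CPM and 395, 362 and 383 CPM (log2 fold change 0.23 ± 0.07, edgeR adjusted p 0.0295), where DMSO replicate 2 overlapped the C59 libraries. The number at 6 h was 2 without C59 replicate 1 or without C59 replicate 3, 3 without DMSO replicate 3, and 0 when all 30 libraries shared the estimate of the spread.

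Long transcripts shifted as a group, and the part of this in the members' values was examined with length offsets alone. Genes whose longest coding transcript has at least 8000 bases had a median log2 fold change of 0.142, 0.142, 0.156 and -0.17 in C59 after 6, 12, 18 and 24 h, against -0.0021, 0.0084, -0.0086 and 0.0124 for the other genes. *Cenpf* (11130 bases), *Mki67* (10061), *Cenpe* (7910), *Mad2l1* (7557) and *Ckap5* (6665) have the longest annotated coding transcripts of the members. The annotated length need not be that of the RNA expressed. In DMSO at 12 h *Mad2l1* had 140 CPM and 40.3 FPKM, and *Cenpe* had 162 CPM and 15.6 FPKM. The FPKM of *Mad2l1* thus rests on a shorter length. *Mad2l1*, lower at 12 h and 18 h, is therefore not read as a long transcript. *Smc4*, which missed the threshold at 18 h, has an annotated transcript of 4316 bases. Offsets for length, an alternative chosen after seeing the data, made 46 of 47 members lower at 18 h, all but *Ckap5*, and 41 lower at 12 h. At 6 h they gave 14 higher and 1 lower (*Mad2l1*, for which the annotated length may not apply). At 24 h *Ccnb2* was the 1 member that passed (-0.20, edgeR adjusted p 0.0467).

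*Mki67*, the gene of the proliferation antigen Ki-67 that coats mitotic chromosomes, had 337, 479 and 357 CPM in DMSO and 539.7, 504 and 517 CPM in C59 at 6 h (log2 fold change 0.41 ± 0.09, edgeR adjusted p 0.0081). At 18 h it had 373, 569 and 515 CPM and 387, 345 and 215 CPM, with overlap (log2 fold change -0.60 ± 0.22, edgeR adjusted p 0.135), and at 24 h 389, 337 and 375 CPM and 251, 277 and 323 CPM, without it (log2 fold change -0.37 ± 0.08, edgeR adjusted p 0.0236). *Cenpf*, a kinetochore protein of G2 and M phase, and *Cenpe*, a kinetochore motor, had values of 0.41 ± 0.10 and 0.42 ± 0.06 at 6 h, -0.63 ± 0.25 and -0.77 ± 0.26 at 18 h and -0.37 ± 0.08 and -0.35 ± 0.08 at 24 h. With length offsets the values of *Mki67*, *Cenpf* and *Cenpe* at 18 h were -0.78, -0.83 and -0.89 (edgeR adjusted p 0.00823, 0.0114 and 0.0259). At 24 h they were -0.19, -0.17 and -0.22 and no longer passed (adjusted p 0.0644, 0.0824 and 0.052), while all 3 stayed past the threshold at 6 h. *Ckap5* counted 164, 357 and 196 CPM in DMSO at 18 h and 304, 272 and 204 CPM in C59 (log2 fold change 0.14 ± 0.27, edgeR adjusted p 0.798). Its DMSO libraries held 323, 345 and 310 CPM at 12 h and 304, 257 and 284 CPM at 24 h. Among the controls, DMSO replicates 1 and 3 of 18 h were thus the low ones. Its place as the exception at 18 h is read with this limit.

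**Figure D4:**
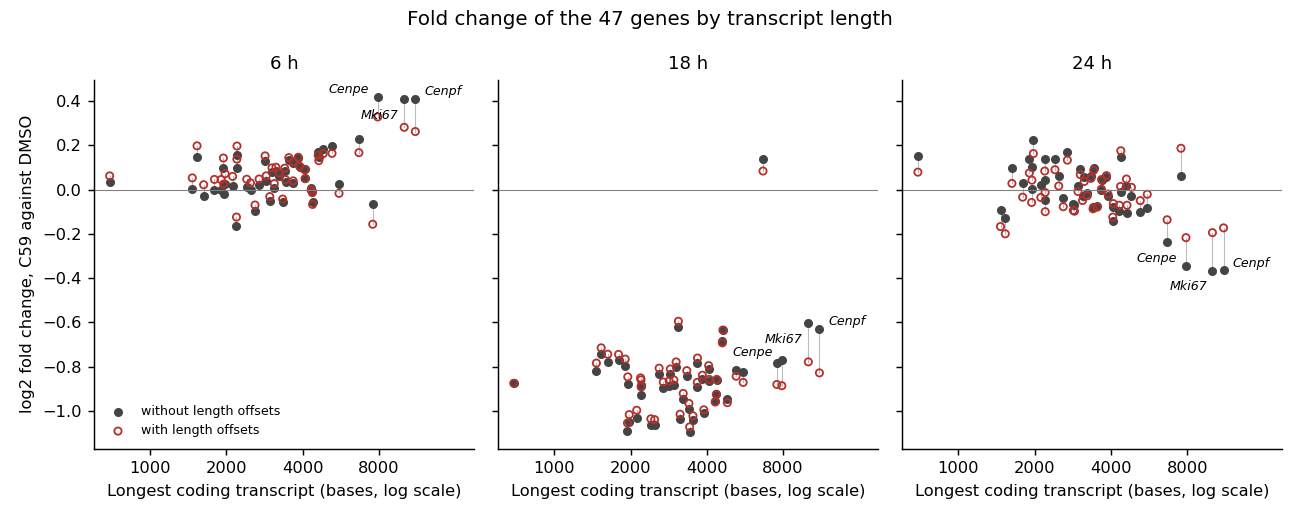
log2 fold change of C59 against DMSO for the 47 genes (y axis) against the length of the longest coding transcript in bases (x axis, log scale) at 6, 18 and 24 h; filled points are values without and open points with length offsets, joined by a line for each gene. Cenpe, Cenpf and Mki67 lie at the long end, above 0 at 6 h and below 0 at 18 h and 24 h, and offsets move them down at 6 h and 18 h and up at 24 h.

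Genes of S phase, which act in DNA replication just before G2, had another course. Of 35 S phase genes 11 were lower at 6 h, 34 at 12 h (median -0.65) and 13 at 18 h (median -0.36), where 11.4%, 25.5% and 3.62% of all genes were. With limma on log2(FPKM + 1) and log2(FPKM + 0.1) 5 and 4 were lower at 6 h, 35 and 35 at 12 h, and 9 and 9 at 18 h. In edgeR 0 were higher at these times (0, 0 and 1 at unadjusted p below 0.05, and 0 in DESeq2 and limma at each time). The log2 fold change was lowest at 12 h for 32 of them, where 26.9% of all genes had theirs at 12 h, against 0 of the 47 mitosis and spindle genes. From 12 h to 18 h their C59 effect became higher for 13 and lower for 0 (0 at unadjusted p below 0.05, in DESeq2 and in limma), while that of the 47 became lower for 25 and higher for 0 (0 by each of the same counts). Over this interval it became higher for 4.94% and lower for 3.55% of all genes. *Cdc6*, which loads the replicative helicase, changed by -1.24 ± 0.06 on the log2 scale (edgeR adjusted p 3.72e-07) at 12 h and was at -0.22 ± 0.10 on the log2 scale (edgeR adjusted p 0.204) at 18 h, and *Ung*, a uracil glycosylase, went from -1.06 ± 0.07 on the log2 scale (edgeR adjusted p 1.28e-06) to 0.27 ± 0.08 on the log2 scale (edgeR adjusted p 0.0959), with a tested difference of 1.34 ± 0.10 on the log2 scale (edgeR adjusted p 9.27e-06). *Rrm2*, a subunit of ribonucleotide reductase, was the lowest at 18 h (log2 fold change -0.75 ± 0.11, edgeR adjusted p 0.00592). From 18 h to 24 h the effect rose for 13, where it rose for 3.53% of all genes. At 24 h 3 S phase genes were higher, led by *Mcm7* (0.59 ± 0.11), where 2.88% of all genes were. *Fen1* had the highest value at 18 h (log2 fold change 0.47 ± 0.32, edgeR adjusted p 0.403), within the spread.

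**Figure D5:**
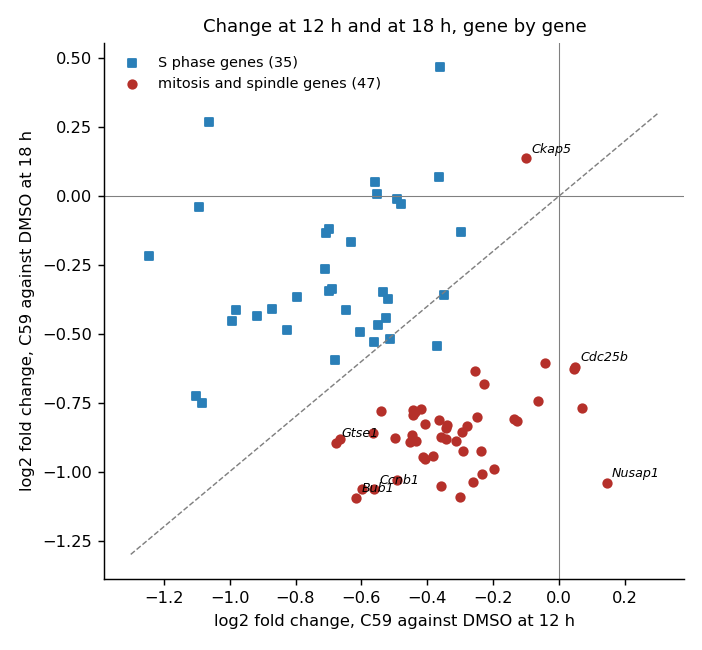
log2 fold change of C59 against DMSO at 12 h (x axis) and at 18 h (y axis) for 47 mitosis and spindle genes (circles) and 35 S phase genes (squares); the dashed line marks equal change. All circles except Ckap5 lie below the line and 32 of 35 squares above it, and Nusap1 and Cdc25b lie at or above 0 at 12 h and far below 0 at 18 h.

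Most of 49 other mitotic genes were lower at 12 h and at 18 h. The list held 44 lower and 0 higher genes at 12 h (median -0.40), where 25.5% of all genes were lower and 22% higher. At 18 h it held 36 lower and 0 higher (median -0.73), where 3.62% and 3.46% of all genes were. At both times 0 were higher also at unadjusted p below 0.05, in DESeq2 and in limma. The lowest value was at 18 h for 37 and at 12 h for 12, where 20.4% and 26.9% of all genes had theirs. The count of 12 lies near the share of all genes. From 12 h to 18 h the effect became lower for 9 and higher for 2 of them, where 3.55% and 4.94% of all genes did. *Pbk*, a mitotic kinase, was the lowest at 12 h (log2 fold change -0.98 ± 0.07, edgeR adjusted p 2.85e-06), and *Depdc1a* at 18 h (log2 fold change -1.24 ± 0.27, edgeR adjusted p 0.0294). *Pttg1*, which encodes securin, changed most from 12 h to 18 h (log2 fold change -1.01 ± 0.17, edgeR adjusted p 0.00305). *Wee1*, the kinase that holds Cdk1 inactive, went the other way over this interval (log2 fold change 0.43 ± 0.11, edgeR adjusted p 0.0213), with -0.56 ± 0.05 at 12 h and -0.13 ± 0.10 at 18 h. At 6 h 2 of 49 were lower and 5 higher, where 11.4% and 8.2% of all genes were, and either limma fit called 2 lower and 1 higher. *Aspm*, a protein of spindle poles, was at 0.41 ± 0.08. At 24 h 1 was lower and 3 were higher, where 3.56% and 2.88% of all genes were, and limma called 0 lower and 1 higher, with *Pkmyt1*, another kinase that holds Cdk1 inactive, at 0.34 ± 0.09.

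Of 26 regulators of mitotic gene transcription 7 were lower and 3 higher at 6 h, where 11.4% and 8.2% of all genes were. DESeq2 called 5 lower and 3 higher at 6 h and either limma fit 3 and 2, which lies near these shares. At 12 h 16 were lower and 3 higher, where 25.5% and 22% of all genes were. The list mixes activators with inhibitors, so its counts have no single direction. At 18 h 4 were lower, against 3.62% of all genes. *Mybl2*, which encodes the B-Myb subunit that turns the MuvB complex into an activator, was the lowest at 12 h, with 75.7 ± 5.17 CPM (SD, n = 3) in DMSO and 36.9 ± 2.64 CPM in C59 (log2 fold change -1.04 ± 0.07, edgeR adjusted p 2.16e-06). Its value stayed lower at 18 h (log2 fold change -0.55 ± 0.10, edgeR adjusted p 0.0163). *Foxm1*, a factor that acts on G2 and M phase genes, was the lowest at 18 h, with 151 ± 8.25 CPM in DMSO and 85.4 ± 8.21 CPM in C59 (log2 fold change -0.81 ± 0.10, edgeR adjusted p 0.0036), and it changed by -0.53 ± 0.06 on the log2 scale (edgeR adjusted p 4.38e-05) at 12 h. The effect on *Foxm1* became higher by 0.89 ± 0.13 on the log2 scale (edgeR adjusted p 0.00177) from 18 h to 24 h. *Cdkn1c*, which encodes the cell cycle inhibitor p57, was the highest at 12 h (log2 fold change 0.82 ± 0.07, edgeR adjusted p 1.09e-05).

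Markers of other cell types also differed between the groups at these times, and their part in the changes of the mitotic genes was not tested. Of all genes tested 25.5% were lower and 22% higher at 12 h, and 3.62% were lower and 3.46% higher at 18 h. In lists this short, counts such as 1 of 6 at 12 h lie near these shares and are not read as a shift of a cell type. Of 6 chondrocyte markers 4 were higher at 12 h and 2 at 18 h, with a summed level at 12 h of 985 to 1042 CPM in DMSO and 1799 to 2494 CPM in C59, and at 18 h of 1081 to 1265 and 1696 to 1997 CPM. Of 5 muscle progenitor markers 3 were lower and 2 higher at 12 h and 3 lower at 18 h, with 159 to 166 CPM in DMSO and 115 to 159 CPM in C59 at 18 h. Surface ectoderm markers were higher in 5 of 6 at 12 h and in 3 of 6 at 18 h (230.3 to 246 and 289 to 354 CPM at 18 h). Endothelial markers were higher in 4 of 5 at 12 h and in 0 of 5 at 18 h (282 to 329 and 320.3 to 351 CPM). Macrophage markers were higher in 4 of 5 and 3 of 5 (26.9 to 29.3 and 39.4 to 46.4 CPM at 18 h), and markers of Schwann cell precursors in 2 of 3 and 1 of 3 (63.7 to 76.6 and 91.1 to 108 CPM). Erythroid markers passed in 1 of 6 at 12 h and 0 of 6 at 18 h (4098 to 5185 and 4819 to 7499 CPM). Limb bud mesenchyme markers were lower in 6 of 7 and higher in 1 of 7 at 12 h, and lower in 2 of 7 at 18 h (1635 to 1724 and 1397 to 1698 CPM). None of these markers was at 0 over a whole group, and the hindlimb markers had no call at 12 h or 18 h.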

How the data were processed

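RNA-sequencing of 30 libraries was analysed from the deposited tables. Per the labels and the methods of the study, the authors trimmed reads with Cutadapt 1.16, aligned them to mm10 with STAR 2.7.0e and deposited raw counts per gene from STAR, and FPKM per gene from cufflinks 2.2.1. Cufflinks was run as unstranded, and the strand setting of the counts was not given in the sources used here. Of 50833 counted genes 205 (0.00676% of counts) had no match in GENCODE M21.

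Protein-coding autosomal genes were tested on the counts with edgeR 4.0.16 (R 4.3.3; TMM normalization, filterByExpr at a count minimum of 10, quasi-likelihood test), each time point on its own 6 libraries, and changes of the C59 effect between time points on 12 libraries. P-values were adjusted by Benjamini and Hochberg over all genes tested. CPM was computed from the counts on TMM sizes over all libraries, and the scripts were tested on simulated data. Library totals of 18188636 to 38974885 limit the precision of low genes, and the spread covers 3 limb bud pairs a group.

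The members and lists were chosen with earlier results of these data known. Named genes were 23 members fixed by role, the 3 lowest and 3 highest in each comparison, those beyond a log2 fold change of 1, the lowest and highest of each other list, the highest and lowest by FPKM, and *Axin2*. Other members are named to account for all 47, and *Foxm1*, *Mybl2*, *Cdc6* and others also outside the comparison that named them. Alternatives were DESeq2 1.42.0, other size factors and filters, all libraries in 1 fit, limma 3.58.1 on log2(FPKM + 1) and log2(FPKM + 0.1), a replicate block, leaving out each library, and length offsets, added after seeing the data.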

Additional observations from a re-analysis of the deposited data

Results flagged for a closer look

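The C59 effect differed between time points by the test of the difference itself. From 6 h to 12 h it became lower for 37 mitosis and spindle genes and for 33 S phase genes, where it did for 11.5% of all genes. *Gtse1* was at -0.70, *Bub1* at -0.65 and *Ccna2* at -0.61 on the log2 scale. From 12 h to 18 h it became lower for 25 mitosis and spindle genes, with *Nusap1* at -1.18 and *Kif23* at -0.79, and higher for 13 S phase genes. Of all genes 3.55% became lower and 4.94% higher over this interval. From 18 h to 24 h it became higher for 41 mitosis and spindle genes, with *Bub1* at 1.18, *Nuf2* at 1.19 and *Cdca3* at 1.26, and for 13 S phase genes. Of all genes 3.53% became higher over this interval. Neighbouring intervals share the 6 libraries of the time point between them. No test for a single outlying value was applied within groups of 3 libraries.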

How the results depend on the processing

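The lower calls at 12 h and 18 h and the return at 24 h kept their direction under the alternatives run. Of 4703 values of named members under alternatives 4371 had the same outcome as the main test, 244 lost a call, 88 gained one and 0 reversed. The 4371 hold both values called in the same direction and values called in neither fit, so they are not a count of calls kept. The counts at 1 h, 6 h and 24 h are small and moved most. At 1 h the count of 3 lower was 0 with all 30 libraries in the fit, 0 and 1 with limma on log2(FPKM + 1) and log2(FPKM + 0.1) (medians -0.0626 and -0.0655). At 6 h 1 was lower without a filter and 1 with length offsets, and the 9 higher became 0 with all 30 libraries, 5 with either limma fit and 14 with length offsets (median 0.0616). At 12 h upper-quartile factors gave 1 higher and a median of -0.2614, and limma medians of -0.2636 and -0.2649. At 24 h the 3 lower became 0 with all 30 libraries, 0 and 0 with limma and 1 with length offsets. From 6 h to 12 h limma on log2(FPKM + 1) gave a median of -0.3434, and from 12 h to 18 h all 30 libraries gave 40 lower. From DMSO 1 h to DMSO 24 h the median was -0.383 with upper-quartile factors and -0.3509 and -0.3589 with limma. Asking for a log2 fold change beyond 1 left 0 lower at 1 h, 0 higher at 6 h, 0 lower at 12 h, 9 at 18 h, 0 at 24 h, 0 from 6 h to 12 h, 1 from 12 h to 18 h, 10 higher from 18 h to 24 h and 0 lower in the DMSO course. The cause of these shifts was not tested.

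Replicate numbers were not taken to pair the samples. Same-numbered pairs deviated together in 3 of 15 cases and other pairs in 5 of 30 (r over 0.1). At 12 h same-numbered pairs had r of 0.0711, 0.192 and 0.225, and the other pairs -0.205 to -0.0136. Same-numbered pairs were all negative at 1 h and 6 h and of either sign at 18 h and 24 h. These counts cannot exclude pairing at a single time point. With the replicate number as a block 5 members were higher at 6 h, 39 lower at 12 h and 41 lower at 18 h.

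Leaving out 1 library gave ranges as follows. At 1 h 1 to 6 were lower and 0 to 2 higher (median -0.0572 to -0.0304), at 6 h 0 to 1 lower and 2 to 9 higher (0.0289 to 0.0771), at 12 h 35 to 40 lower and 0 to 3 higher (-0.3998 to -0.2883), and at 18 h 26 to 44 lower (-0.9326 to -0.7958). At 24 h 0 to 4 were lower and 0 to 1 higher (-0.0163 to 0.0252). The effect became lower for 30 to 39 members from 6 h to 12 h (-0.4711 to -0.3566) and for 16 to 33 from 12 h to 18 h (-0.6128 to -0.4413), and from 18 h to 24 h lower for 0 to 1 and higher for 34 to 43 (0.7875 to 0.9404). In the DMSO course 41 to 45 fell (-0.4389 to -0.3965). Of the libraries that moved a count by over 1.5 times, those not named above were C59 12 h replicate 1, without which *Cenpe*, *Cenpf* and *Nusap1* were higher at 12 h, DMSO 6 h replicate 2 (1 lower at 6 h), DMSO 24 h replicates 1 and 3 (0 lower at 24 h without either), C59 24 h replicate 2 (1 lower), C59 24 h replicate 3 (1 higher) and DMSO 18 h replicate 2 (1 lower from 18 h to 24 h).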
